A study of Mus musculus with 16 samples.

Results

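The CD34- hematopoietic stem cells of mice with a CD70 transgene were set directly against the CD34+ cells of mice without it. The 4 arrays labelled CD70TG CD34Neg and the 4 labelled control CD34Pos were taken, 8 of the 16 arrays of the series, with every probe and the brightest probe of each gene symbol. The comparison asks whether CD34- cells from mice that express the CD27 ligand CD70 resemble the CD34+ cells of control mice. The 8 other arrays, control CD34- and CD70TG CD34+, entered the fit and are given beside the results.

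All mice were C57Bl/6 and lacked IFNgamma, so the controls are IFNgamma-/- and the transgenic mice IFNgamma-/- with CD70TG. Every array carried RNA of bone marrow cells pooled from 2 mice and sorted, and each group had 4 such pools. Neither the transgene's promoter nor the age of the mice is stated in the labels. The sort protocol defines LT-HSC (long-term HSC) and ST-HSC (short-term HSC) among lineage-negative cells with c-Kit and Sca-1 on the surface, and it lists the same CD34- Flt3- marks for both, so the CD34 status of the second fraction rests on the sample labels. The direct comparison changes genotype and fraction at once, and within it the effects of both cannot be told apart. The fit therefore also gave CD70TG CD34- against control CD34-, control CD34+ against control CD34-, and CD70TG CD34- against CD70TG CD34+. These comparisons share arrays with the direct one, and their values are set side by side only.

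Long-term HSC are mostly quiescent and can rebuild blood for the life of an animal, whereas short-term HSC and multipotent progenitors divide more often and lose that capacity. In mice, lack of surface CD34 within this compartment marks the long-term cells. CD27 is a receptor of the TNF receptor family on lymphocytes and hematopoietic progenitors, and binding of CD70 signals through TRAF adaptors to NF-kB.

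Values are the authors' log2 values as deposited. The base of the logarithm is not stated in the sources used here and is read as 2, so that a difference of 1 would be a doubling. On the 16 arrays between 50.1% and 57.5% of the probes lay above background, and array medians ran from 6.43 to 6.53. On principal components of the 11851 features above background, component 1 held 50.6% of the variance. The CD70TG CD34- arrays scored 0.672 to 26.4 on it and the control CD34+ arrays -19.7 to 5.48, so that 1 array of each group crossed the other group's range. On component 2, with 17.4% of the variance, the CD70TG CD34- arrays scored -18.9 to -17.0 and the control CD34+ arrays 14.9 to 16.5. Control CD34- arrays scored -9.05 to -7.04 there, on the same side as the CD70TG CD34- arrays. Control CD34+ replicate 4 and CD70TG CD34- replicate 2 stood apart from their groups along component 1. A probe discordance index, the first component of the difference between both probes of 1851 genes that have exactly 2 bright ones, scored 0.70 ± 0.64 (SD, n = 4) on the CD70TG CD34- and -0.42 ± 0.70 on the control CD34+ arrays. The difference of 1.12 had p = 0.0571 in a two-sided exact permutation test, whose smallest possible p is 0.0286. Many results that these settings move are therefore also given with this index in the fit, without both arrays that stood apart, or with both. This was not done for every named gene, so a value given alone need not hold under both settings.

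**Figure D1:**
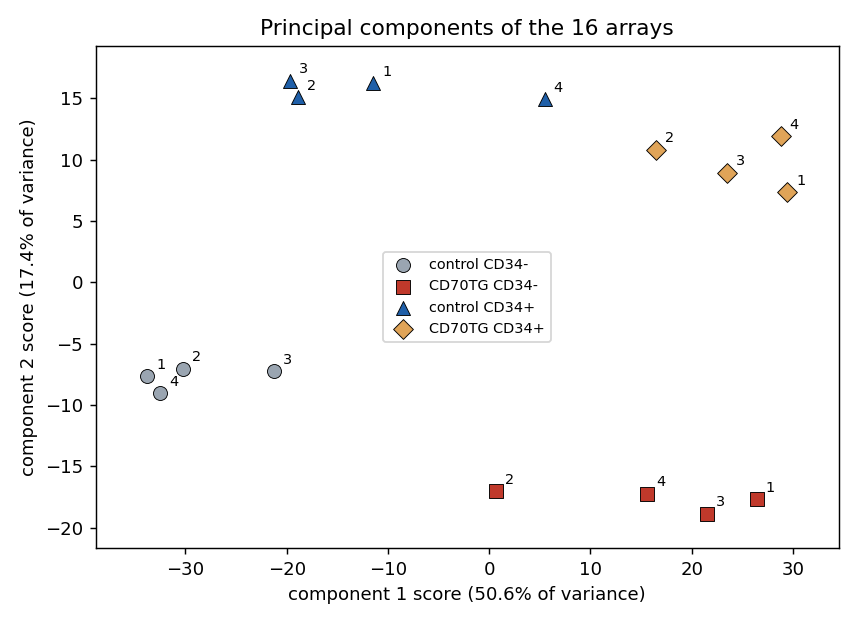
Scores of the 16 arrays on components 1 and 2 of the features above background (axes in score units, with the share of variance), with replicate numbers beside the points. The CD70TG CD34- arrays lie from 0.672 to 26.4 on component 1 and from -18.9 to -17.0 on component 2, opposite the control CD34+ arrays.

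The CD34- cells of CD70TG mice differed from control CD34+ cells at 2119 of 18312 tested features (limma, Benjamini-Hochberg adjusted p under 0.05). Of these, 1153 were higher (6.3% of all features) and 966 lower (5.28%), 232 and 118 of them by at least 1 on the log2 scale. At an unadjusted p under 0.05 the count was 4667. Quantile normalization turned the balance to 944 higher against 1257 lower features, and equal array medians to 920 against 1262, so which direction held more genes depended on the scaling. The values of both groups did not overlap at 2716 features (14.8%). With the index in the fit 1134 features were called, 620 higher and 514 lower, and 934 of them were among the 2119. Without both arrays that stood apart 3209 were called, 1779 higher and 1430 lower, and 1885 of them were among the 2119. The median difference over all features was -2e-04. Of the 2119 called features 2038 were among the 11851 above background. The shares of all features given beside each list below are therefore lower than those among features above background.

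Most features were close in both groups. At 14174 features (77.4%) the 95% interval of the difference lay within 0.5 of 0, and among the 11851 features above background at 7727 (65.2%). For comparison, against control CD34- cells the CD70TG CD34- cells differed at 1776 features that were higher (9.7%) and 1387 that were lower (7.57%), with 60.9% of features above background within 0.5. With the index in the fit that total of 3163 was 595, but the index itself separated these groups without overlap. Between the fractions of control mice 413 features were higher in CD34+ cells (2.26%) and 468 lower (2.56%), with 73.3% within 0.5, and the total of 881 was 570 without control CD34+ replicate 4. Against CD70TG CD34+ cells, 482 features were higher (2.63%) and 189 lower (1.03%), with 79.05% within 0.5.

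As a distance over the features above background, the root mean square difference of each CD70TG CD34- array from the control CD34+ mean was 0.48, 0.40, 0.45 and 0.42 for replicates 1 to 4. From the control CD34- mean it was 0.54, 0.39, 0.50 and 0.46, and from the CD70TG CD34+ mean 0.32, 0.40, 0.31 and 0.32. By this measure 3 of 4 arrays were nearer to control CD34+ than to control CD34- cells. Without both arrays that stood apart 3 were, with CD70TG CD34- replicate 2 itself left out. This setting and the next were added after seeing the data. With the effect of the index removed from the values, 1 of 4 was. The distance to the control CD34+ mean was then 0.393 to 0.407 and that to the control CD34- mean 0.374 to 0.414, and the ranges overlapped.

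**Figure D2:**
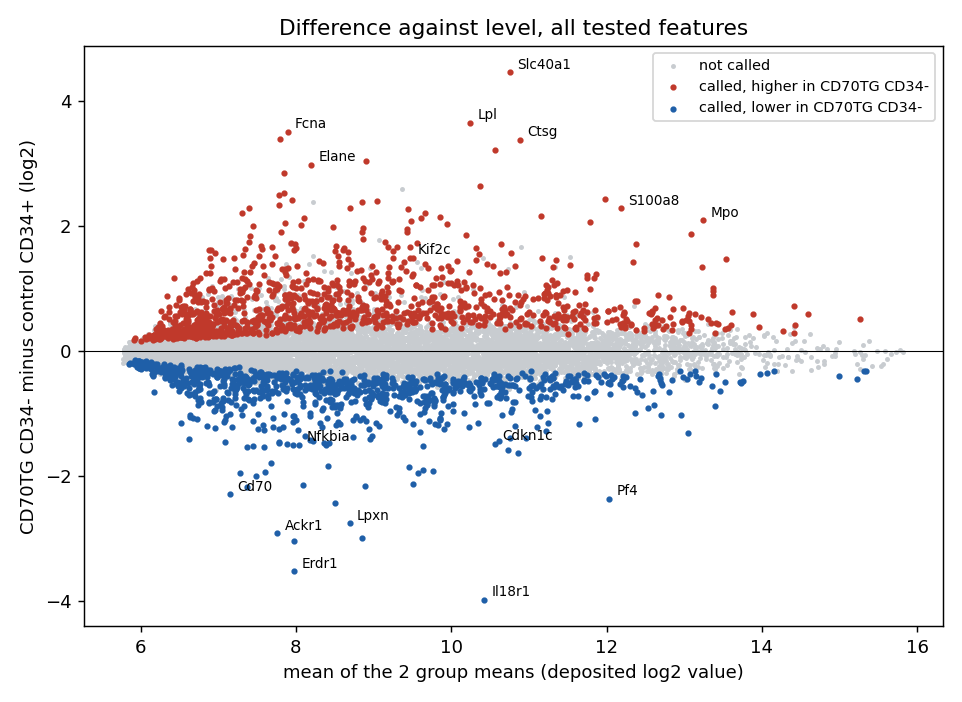
Difference between CD70TG CD34- and control CD34+ means (log2, y axis) against the mean of both (deposited log2 value, x axis) for 18312 features, with called features in colour. The highest point is Slc40a1 at 4.46 and the lowest Il18r1 at -3.98.

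Genes named by the sort and by the mouse lines were read first. Cd34, which encodes the surface protein that names the fractions, read 9.35, 9.69, 9.46 and 9.65 on the CD70TG CD34- arrays and 9.56, 9.42, 9.70 and 9.18 on the control CD34+ arrays. The groups overlapped, the difference was 0.07 (95% interval -0.20 to 0.34, adjusted p = 0.80), and the fractions of control mice also differed by only -0.17 (adjusted p = 0.53), so that Cd34 RNA did not separate the labelled fractions on these arrays. Flt3, the receptor tyrosine kinase of multipotent progenitors that the gate should lack, read 8.86, 6.73, 9.03 and 8.96 in CD70TG CD34- and 6.76, 6.29, 6.36 and 7.41 in control CD34+ arrays. Its difference of 1.69 ± 0.39 (SE, adjusted p = 0.0058) became 0.38 with the index in the fit (adjusted p = 0.45), and CD70TG CD34- replicate 2 lay within the control range. Cd48, a marker of progenitors, was 0.65 higher (adjusted p = 0.11), and 1.11 higher without both arrays that stood apart (adjusted p = 6.5e-04), but differed by -0.16 with the index in the fit. Slamf1, which encodes the long-term HSC marker CD150, fell by 0.75 (adjusted p = 8.9e-05), with another probe at -0.28, and Procr, which encodes EPCR, did not pass (0.06, interval -0.17 to 0.28). Kit and Ly6a were not analysed here. Il7r, the interleukin 7 receptor of lymphoid progenitors, was 0.25 higher (adjusted p = 0.59).

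Cd27, the receptor of CD70, read 12.35 to 12.63 in CD70TG CD34- and 12.20 to 12.77 in control CD34+ arrays, and the groups overlapped (difference -0.10, interval -0.37 to 0.16). Cd70 itself read 7.90, 9.60, 8.56 and 7.11 on the control CD34+ arrays and was below background on the 4 CD70TG CD34- arrays, at 5.81 to 6.09. It was thus at least 3.80-fold lower in the transgenic CD34- cells, where a group below background is set at the threshold of its arrays (adjusted p = 1.2e-05). Control CD34- arrays were also below background, at 6.05 to 6.21. The labels do not say whether this probe detects transgene RNA. Ifng, deleted in all mice, stayed near background in both groups (6.33 and 6.39), and the labels do not say whether its probe lies in the deleted part.

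Many genes that mark long-term HSC were lower in the transgenic CD34- cells than in control CD34+ cells. Of 34 measured members of the list, 17 fell and 0 rose, where 5.28% and 6.3% of all features did, and the median difference was -0.40. Between the fractions of control mice 7 fell and 0 rose from CD34- to CD34+ cells (2.56% and 2.26% of all features). Against control CD34- cells 22 fell and 1 rose in CD70TG CD34- cells (7.57% and 9.7% of all features). The mean level of the list ran from 8.37 to 8.43 on the CD70TG CD34- arrays, from 8.86 to 8.93 on the control CD34+ arrays and from 8.99 to 9.18 on the control CD34- arrays, and these ranges were separate. CD70TG CD34+ arrays, at 8.04 to 8.06, were lower still, and 10 members were higher and 1 lower in CD70TG CD34- than in CD70TG CD34+ cells (2.63% and 1.03% of all features).

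Esam, an adhesion molecule of the junctions of endothelium and of HSC, read 10.11, 10.37, 10.23 and 10.38 in CD70TG CD34- and 11.66, 11.50, 11.91 and 11.59 in control CD34+ arrays. No array of the first group reached the second, the difference was -1.39 ± 0.14 (SE, adjusted p = 3.3e-07), and the fractions of control mice differed by 0.09 (adjusted p = 0.79). Hoxb5, a homeobox factor whose reporter marks long-term HSC in mice, read 7.10, 7.06, 7.14 and 7.36 against 8.32, 8.14, 8.34 and 8.14, again without overlap. It fell by 1.07 (adjusted p = 5.1e-07). Tgm2, a transglutaminase, read 10.12, 10.19, 10.03 and 9.88 against 11.46, 11.57, 11.77 and 11.92, a difference of -1.62 ± 0.13 (adjusted p = 3.3e-08). Gimap6, a GTPase of the immunity-associated family, fell by 1.28 and Vwf, the platelet and endothelial von Willebrand factor, by 1.37. In all 5 the CD70TG CD34- level was also below that of control CD34- cells, with differences of -1.95 (Tgm2) to -1.12 (Gimap6) and adjusted p of at most 2.5e-06, whereas none of them passed between the fractions of control mice.

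Further members that fell included Pdzk1ip1 (-1.44), Sult1a1 (-1.47), Mllt3 (-1.27), a chromatin reader that sustains HSC, and Tcf15 (-0.77), a helix-loop-helix factor. Other HSC regulators did not pass. Mecom differed by 0.14 (interval -0.06 to 0.33), Hlf by 0.23 (0.05 to 0.41, adjusted p = 0.086) and Fgd5 by 0.08 (-0.04 to 0.20), and none of these 3 intervals reached below -0.06. Without both arrays that stood apart Hlf was 0.32 higher (adjusted p = 0.027). Prdm16 was below background in both groups. In these bulk arrays, fewer cells that express a gene and less of its RNA per cell cannot be told apart.

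**Figure D3:**
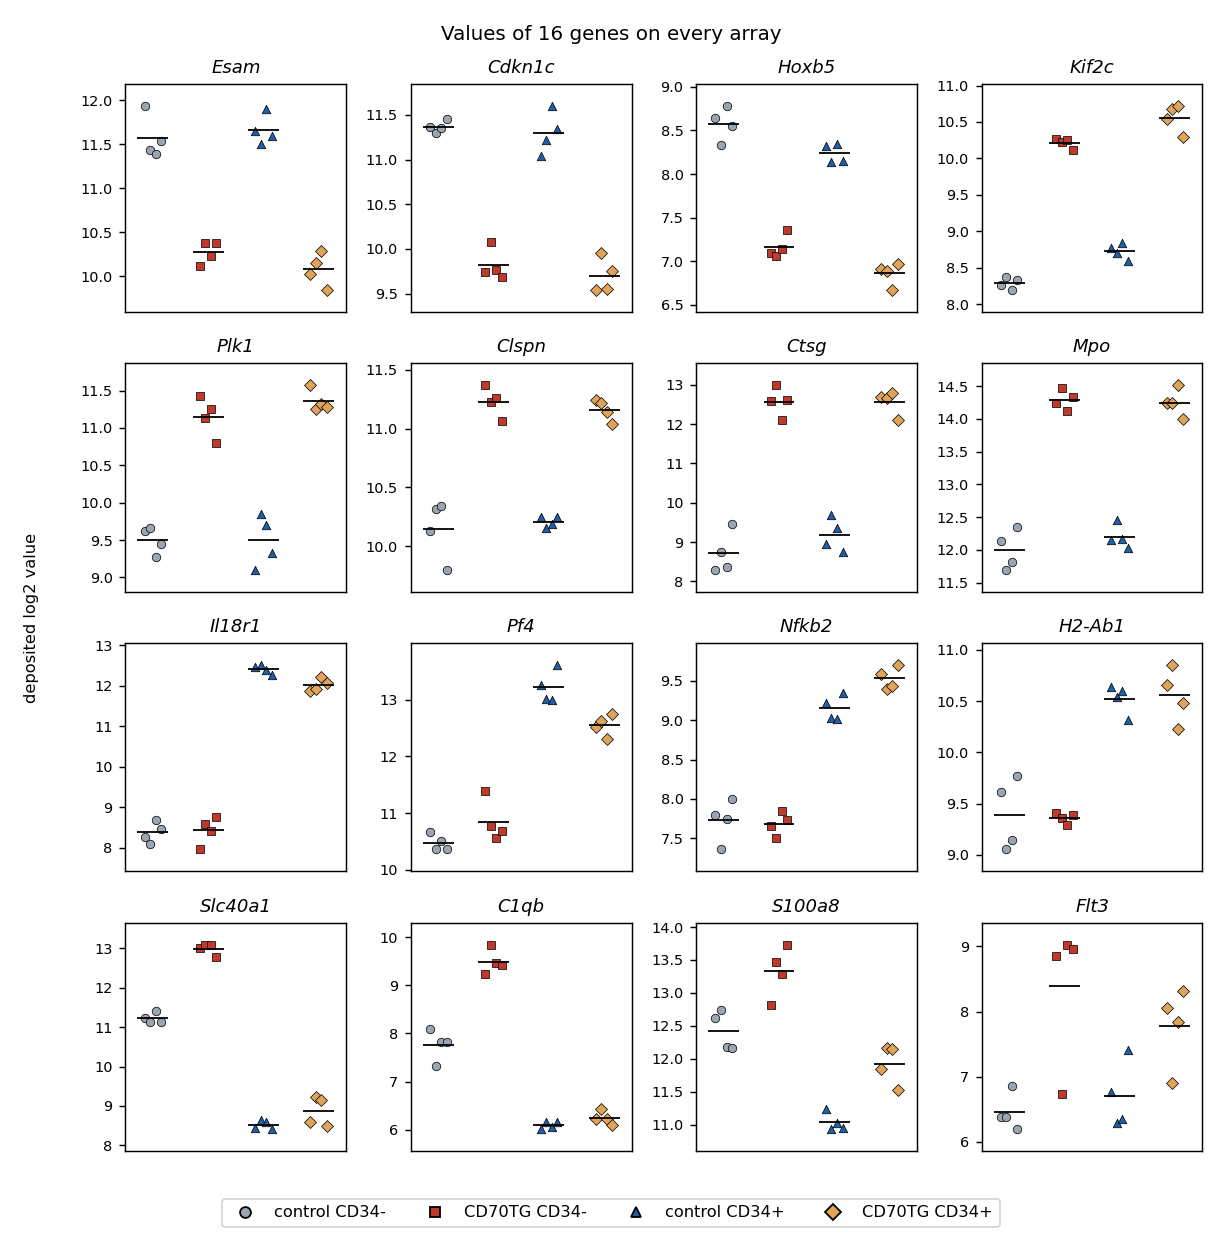
Deposited log2 values (y axis, own scale per gene) of 16 genes on every array of the 4 groups, with a line at each group mean (n = 4). For Esam, Cdkn1c, Hoxb5, Kif2c, Plk1, Clspn, Ctsg and Mpo the CD70TG CD34- arrays lie apart from both control groups, and for Il18r1, Pf4, Nfkb2 and H2-Ab1 they overlap the control CD34- arrays.

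Brakes of the cell cycle moved both ways. Of 19 measured genes of quiescence and CDK inhibition 5 rose and 3 fell (6.3% and 5.28% of all features), with a median of 0.21. Cdkn1c, which encodes the CDK inhibitor p57 that holds HSC in quiescence, read 9.74, 10.08, 9.77 and 9.68 in CD70TG CD34- and 11.04, 11.22, 11.60 and 11.34 in control CD34+ arrays. The groups did not overlap, and the difference was -1.48 ± 0.13 (SE, adjusted p = 1.0e-07). Control CD34- arrays, at 11.30 to 11.46, overlapped control CD34+ arrays, with a difference of -0.07 (adjusted p = 0.85). Foxo1, a forkhead factor of stress resistance, fell by 0.64, and Btg1, an antiproliferative gene, by 0.51, but other bright probes of Btg1 differed by 0.09 and -0.37. Cdkn2c, which encodes the inhibitor p18, rose by 0.56 (adjusted p = 0.0016) and did not pass with the index in the fit (0.44, adjusted p = 0.062), and Cdkn1b (p27) was not called at 0.20.

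Cdkn1c is also imprinted, and 8 of 17 measured imprinted growth genes fell while 1 rose (5.28% and 6.3% of all features), with a median of -0.07. Grb10, an adaptor that restrains growth factor receptors, read 9.46, 9.49, 9.16 and 9.01 against 10.41, 10.38, 10.58 and 10.75, and fell by 1.25 (adjusted p = 6.3e-07). Ndn, encoding the growth suppressor necdin, had means of 10.23 and 11.43 (adjusted p = 1.9e-06), and Snrpn fell by 1.25, with another probe of Snrpn at 0.02. Igf2r, the receptor that clears IGF2, rose by 1.02 (adjusted p = 1.7e-06), although another bright probe of it differed by 0.09. It was as high in CD70TG CD34- as in control CD34- cells (8.57 and 8.54), and lower in control CD34+ cells (7.55).

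Many cell cycle genes were higher in the transgenic CD34- cells than in control CD34+ cells, and few of them differed between the fractions of control mice. Of 35 measured G2 and M phase genes 29 rose and 0 fell (6.3% and 5.28% of all features), with a median of 0.98. Of 36 S phase genes 19 rose and 0 fell, with a median of 0.40. Between control CD34+ and control CD34- cells 3 of the G2 and M phase genes rose, and 1 S phase gene rose and 1 fell (2.26% and 2.56% of all features). With the index in the fit 25 G2 and M phase and 12 S phase genes rose, and without both arrays that stood apart 28 and 19 rose and 1 S phase gene fell. The mean level of the G2 and M phase list ran from 9.06 to 9.18 on CD70TG CD34- arrays and from 8.13 to 8.37 on control CD34+ arrays. On CD70TG CD34+ arrays it was 9.20 to 9.29, and 0 of 35 members were called between the fractions of CD70TG mice. Of all features 2.63% were higher and 1.03% lower in CD70TG CD34- than in CD70TG CD34+ cells. Of the list, 6 genes were below background on all arrays of both groups, and of these Bub1 is counted among the 29.

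Kif2c, a kinesin that takes microtubules apart in mitosis, read 10.26, 10.22, 10.26 and 10.12 in CD70TG CD34- and 8.77, 8.70, 8.84 and 8.60 in control CD34+ arrays. The difference was 1.49 ± 0.11 (SE, adjusted p = 8.5e-09), without overlap. Plk1, the polo-like kinase of mitotic entry, read 11.42, 11.14, 11.26 and 10.80 against 9.10, 9.85, 9.70 and 9.33, a difference of 1.66 ± 0.16 (adjusted p = 2.9e-07). Aurka, the centrosome kinase Aurora A, read 11.95, 12.05, 11.87 and 11.81 against 10.24, 10.66, 10.64 and 10.17 (difference 1.49 ± 0.13, adjusted p = 8.9e-08). In these 3 genes every CD70TG CD34- array was above every control CD34+ array. Spc25, of the kinetochore, rose by 1.49, and Nusap1, of the spindle, by 1.42, although its other probes differed by 0.41 and 0.22. Of the S phase genes, Clspn, the checkpoint adaptor claspin, read 11.37, 11.23, 11.26 and 11.07 against 10.25, 10.15, 10.19 and 10.25 and rose by 1.02 ± 0.12, with other probes at 0.15 to 1.02. Rrm1 and Rrm2, the subunits of ribonucleotide reductase, rose by 0.86 and 1.67, and the replication factor Mcm10 by 1.03. Other bright probes of Rrm2 and Mcm10 differed by 0.98 and 0.79. Pcna, the clamp of DNA polymerase, rose by 1.27 (adjusted p = 0.017), and with the index in the fit it differed by 0.05. Of 13 G1 cyclins, their kinases and partners only E2f1 (0.58) and E2f2 (1.03, another probe 0.57), transcription factors of S phase entry, rose. Myc was not called at 0.07 (interval -0.23 to 0.38).

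The promoters of 2 of these mitotic genes are shown because the CHR element and the CCAAT box are the known binding motifs of the complexes that time G2 and M phase transcription. RefSeq windows of 300 bases around the start (GRCm38.p6) were matched for 31 of the 35 genes and searched on both strands. TTTGAA occurred in 24 of 31 (77.42%) and CCAAT in 23 of 31 (74.19%), where 20.23% and 41.06% of all 27025 genes with a window held them. Capitals mark both motifs, which do not overlap. Of other genes of the list examined singly, Spc25 held both motifs, Kif2c held TTTGAA without CCAAT, and Nusap1 held neither. A match is not evidence of binding. The list holds known G2 and M phase genes, so these shares follow from its choice and are not a result of these arrays. The Plk1 window lies at chr7:122159185-122159484 on the + strand, and that of Aurka at chr2:172370521-172370820 on the - strand.
Plk1: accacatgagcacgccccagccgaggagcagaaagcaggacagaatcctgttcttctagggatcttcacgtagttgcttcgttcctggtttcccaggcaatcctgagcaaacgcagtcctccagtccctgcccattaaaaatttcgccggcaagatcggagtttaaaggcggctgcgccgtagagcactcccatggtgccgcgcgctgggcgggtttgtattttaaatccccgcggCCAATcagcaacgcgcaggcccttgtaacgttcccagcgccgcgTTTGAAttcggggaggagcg
Aurka: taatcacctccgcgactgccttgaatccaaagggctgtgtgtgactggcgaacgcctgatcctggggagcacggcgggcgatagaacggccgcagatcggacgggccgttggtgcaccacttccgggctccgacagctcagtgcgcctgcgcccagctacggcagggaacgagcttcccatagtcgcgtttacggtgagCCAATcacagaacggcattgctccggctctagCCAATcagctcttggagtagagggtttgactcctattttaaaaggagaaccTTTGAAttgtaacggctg

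Genes of the primary granules of myeloid cells were among those that differed most. Of 27 measured members 17 rose and 0 fell, with a median of 0.79 (6.3% and 5.28% of all features), and the count was the same with the index in the fit and 19 without both arrays that stood apart. Ctsg, the granule protease cathepsin G, read 12.58, 12.99, 12.09 and 12.61 in CD70TG CD34- and 8.95, 9.69, 9.37 and 8.75 in control CD34+ arrays. The difference of 3.38 ± 0.24 (SE, adjusted p = 4.4e-09) left the groups far apart, while control CD34- arrays read 8.30 to 9.47 and CD70TG CD34+ arrays 12.10 to 12.80. Mpo, myeloperoxidase, read 14.24, 14.48, 14.13 and 14.33 against 12.15, 12.46, 12.17 and 12.02, a rise of 2.09 ± 0.14 (adjusted p = 8.2e-10). Elane, neutrophil elastase, read 10.15, 9.41, 8.98 and 10.22 against 6.54, 6.72, 6.71 and 6.84, a rise of 2.99 ± 0.25. Elane alone of these 3 was also called between the fractions of CD70TG mice (9.69 in CD34- and 8.62 in CD34+ cells, adjusted p = 0.013). Prtn3, proteinase 3, rose by 1.72, and the transcription factors Gfi1 and Irf8 rose by 1.02 and 1.49. Cebpe, the factor of late granulocyte genes, rose by 1.66, but its other bright probe differed by 0.13. Spi1, which encodes PU.1, was not called at -0.10 (interval -0.32 to 0.12).

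Genes of multipotent progenitors rose more often than they fell, with 7 rises and 1 fall among 18 measured members (6.3% and 5.28% of all features) and a median of 0.25. Emb, which encodes the adhesion protein embigin, read 13.97, 13.94, 13.92 and 13.78 against 12.51, 12.53, 12.47 and 12.74 and rose by 1.34 (adjusted p = 3.6e-09). Dntt, the terminal transferase of early lymphoid cells, rose by 1.48, the receptor Notch1 by 0.91 and Plac8 by 0.51. Emb, Dntt and Notch1 were lower in control CD34+ than in control CD34- cells, with differences of -1.14 to -0.67, and against control CD34- cells Emb was higher in CD70TG CD34- cells (0.67, adjusted p = 4.5e-05), while Dntt (0.34) and Notch1 (0.21) did not pass. The member that fell was Ltb, described with the NF-kB genes.

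Markers of mature macrophages and neutrophils were higher in the transgenic CD34- cells than in control CD34+ cells. Of 16 measured macrophage markers 12 rose and 1 fell (6.3% and 5.28% of all features), with a median of 1.43. Of 11 neutrophil markers 11 rose, with a median of 1.87, and 10 did with the index in the fit. From control CD34- to control CD34+ cells 7 macrophage and 8 neutrophil markers fell (2.56% of all features). The mean of the macrophage list ran from 8.40 to 8.73 on CD70TG CD34-, from 7.42 to 7.59 on control CD34- and from 6.90 to 6.96 on control CD34+ arrays. That of the neutrophil list ran from 10.08 to 11.01, from 9.77 to 10.34 and from 8.80 to 9.20. In control CD34+ arrays 6 macrophage markers and 1 neutrophil marker were below background on all 4 arrays, and in CD70TG CD34- arrays 1 macrophage marker was.

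Slc40a1, the iron exporter ferroportin of red pulp and marrow macrophages, read 13.01, 13.07, 13.09 and 12.79 in CD70TG CD34- and 8.43, 8.66, 8.60 and 8.42 in control CD34+ arrays. It had the largest rise, 4.46 ± 0.15 (SE, adjusted p = 2.7e-14). C1qb, a chain of complement C1q, read 9.22, 9.84, 9.46 and 9.42 and was below background on the 4 control CD34+ arrays, at 6.02 to 6.17, so that it was at least 8.77-fold higher (adjusted p = 4.7e-13). Fcna, ficolin A, read 9.51, 9.89, 9.69 and 9.50, was below background in the other group, and was at least 9.80-fold higher. Control CD34- arrays read 11.12 to 11.40 for Slc40a1 and 7.32 to 8.09 for C1qb, between both groups. Mrc1, the mannose receptor, rose by 2.86, Cd163, the scavenger receptor for haemoglobin, by 3.04, Adgre1, an adhesion receptor that marks macrophages, by 2.50 and Axl, a receptor of apoptotic cell uptake, by 2.64. Lpl, lipoprotein lipase, read 12.35, 12.00, 12.34 and 11.60 against 7.71, 8.61, 8.47 and 8.88 and rose by 3.66 ± 0.22. Marco and Fcgr1 did not pass (0.07 and 0.20), and Spic, a factor of red pulp macrophages, fell by 0.57.

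Of the neutrophil markers, S100a8, a calcium-binding protein of the cytosol, read 12.81, 13.48, 13.28 and 13.73 in CD70TG CD34- and 11.24, 10.93, 11.02 and 10.95 in control CD34+ arrays (difference 2.29 ± 0.18 SE, adjusted p = 1.5e-08). Camp, the antimicrobial cathelicidin, rose by 2.08 and Lcn2, lipocalin 2, by 2.17. Every CD70TG CD34- array exceeded every control CD34+ array for these 3, and control CD34- means of 12.42, 11.93 and 11.35 lay between. Other genes with large rises are known from myeloid cells too: Chil3 (2.43), Trem3 (2.38), Fpr2 (2.40, a formyl peptide receptor) and Clec7a, which encodes the beta-glucan receptor dectin-1 (2.42, with its 3 other bright probes at -0.20 to 0.16). The part of these cell types' RNA in the rises of primary granule, immediate early and other myeloid genes was not tested. On the CD70TG CD34+ arrays Ctsg read 12.10 to 12.80 and Mpo 13.99 to 14.51, while their macrophage list mean was 6.93 to 7.11 and their neutrophil list mean 9.19 to 9.76.

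Markers of other cell types moved less evenly, and their counts stand against 6.3% of all features that were higher and 5.28% that were lower. Megakaryocyte markers were lower, with 8 falls and 1 rise among 9 measured members and a median of -0.97. Between the fractions of control mice 5 rose and 1 fell (2.26% and 2.56% of all features). Pf4, platelet factor 4, read 11.39, 10.78, 10.56 and 10.68 in CD70TG CD34- and 13.25, 13.02, 12.99 and 13.61 in control CD34+ arrays, a difference of -2.37 ± 0.16 (SE, adjusted p = 2.6e-09), and control CD34- arrays read 10.36 to 10.67. Itga2b, which encodes CD41, fell by 0.97 and the platelet glycoprotein Gp5 by 1.21, whereas Selp, P-selectin, rose by 0.88. Mast cell, basophil and eosinophil genes split, with 3 rises and 4 falls among 13 measured. Mcpt8, the basophil protease, rose by 2.34 and Hdc, histidine decarboxylase, by 3.21, while Cpa3, a mast cell carboxypeptidase, fell by 0.73 (other probes 0.05 and -0.19), Gata2 by 1.03 and Il4 by 1.26. Mcpt8 read 8.55 to 9.48 in CD70TG CD34- and 6.59 to 6.64 in control CD34+ arrays. Of 10 B cell markers 0 rose and 1 fell, which was Cd74, and without both arrays that stood apart 6 fell. The B cell list mean ran from 7.03 to 7.26 on CD70TG CD34- arrays and, more widely, from 7.06 to 8.03 on control CD34+ arrays. Against control CD34- cells, at 7.64 to 7.83, 7 members fell and 0 rose (7.57% and 9.7% of all features). Of 12 T and NK cell markers 2 fell, Ccl5 (-2.14) and Klrb1c (-0.27, not passing with the index), and Cd3e was not called at 0.08. Of 9 erythroid markers 3 rose and 1 fell, the latter Car2 at -0.67 with another bright probe at 0.72. Of 10 stromal and endothelial markers 2 rose, Kdr by 0.73 and Cxcl12 by 0.27, but neither passed with the index in the fit (0.37 and 0.24), and Cdh5 and Col1a1 were below background in both groups.

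**Figure D4:**
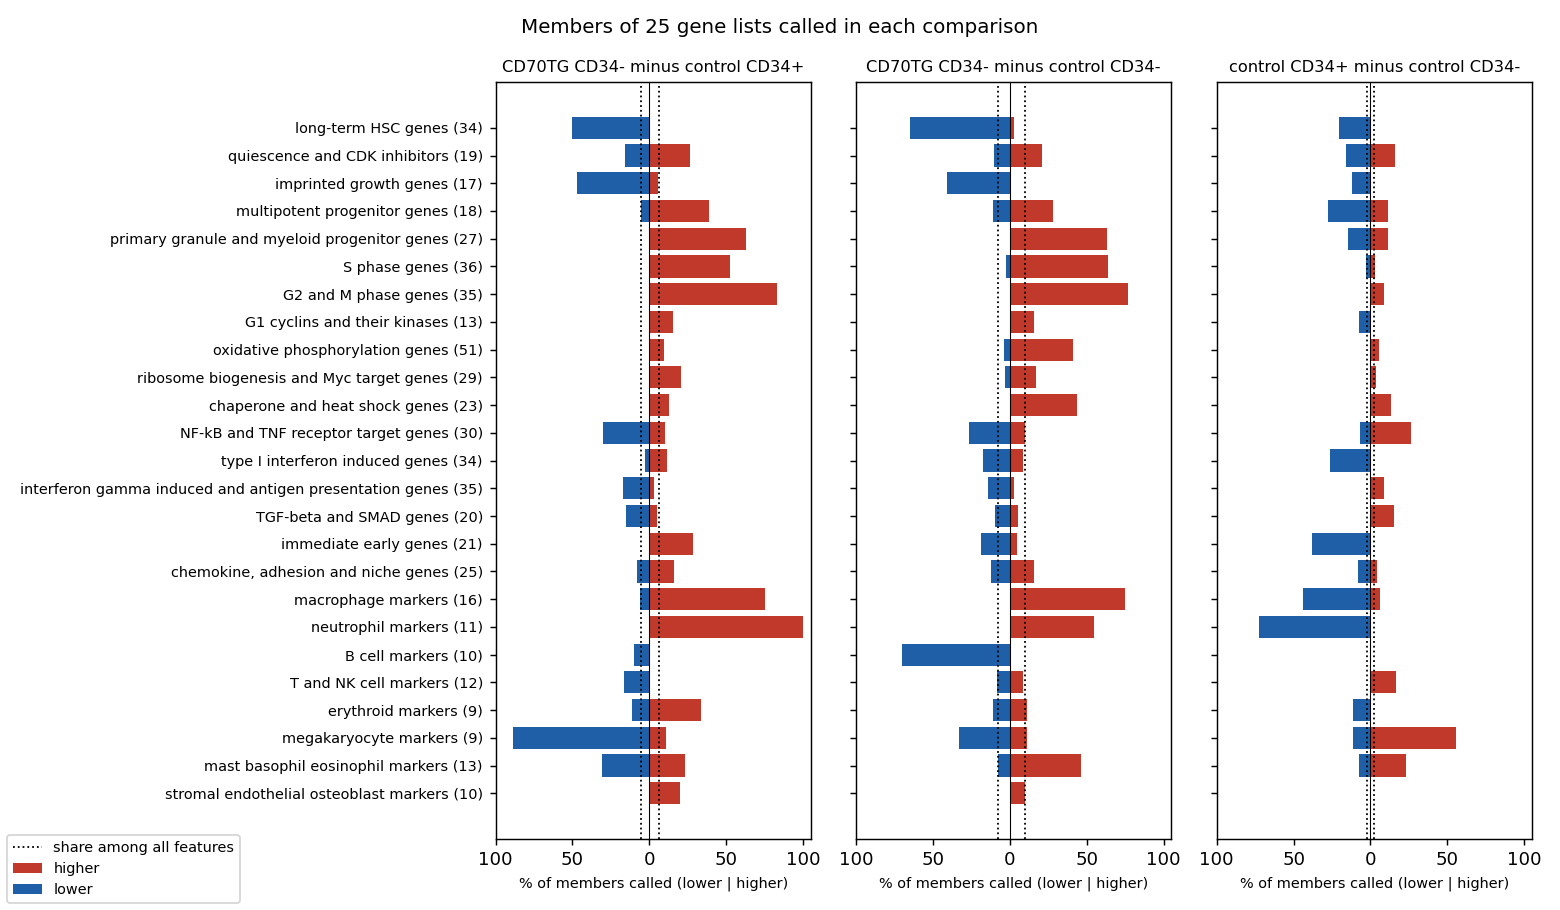
Percentage of the measured members of 25 gene lists (number in parentheses) that were called higher (red, to the right) or lower (blue, to the left) in 3 comparisons, with dotted lines at the share among all features. In the left panel 29 of 35 G2 and M phase genes and 11 of 11 neutrophil markers are higher and 17 of 34 long-term HSC genes are lower.

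The genes that differed most between the fractions of control mice lay in part at their CD34- level in the transgenic CD34- cells. These 16 genes were chosen on the control CD34+ arrays that the direct comparison also uses, so their values are given as a description with no test. Il18r1, a chain of the interleukin 18 receptor, read 12.47, 12.52, 12.39 and 12.27 in control CD34+ arrays, 8.08 to 8.68 in control CD34- and 7.96, 8.59, 8.42 and 8.77 in CD70TG CD34- arrays. Its difference of -3.98 between CD70TG CD34- and control CD34+ cells was the largest fall. Ackr1, the atypical chemokine receptor of the Duffy blood group, read 9.32, 9.07, 9.30 and 9.18 in control CD34+ arrays and was below background on the 4 CD70TG CD34- arrays, at least 7.22-fold lower. Erdr1 read 8.03, 9.90, 10.18 and 10.86 in control CD34+ arrays, a wider spread than that of Il18r1 or Ackr1, and 6.05 to 6.33 in CD70TG CD34- arrays, below background there and at least 10.4-fold lower. Lpxn, the focal adhesion protein leupaxin, read 9.61 to 10.55 against 7.23 to 7.44. For Il18r1, Ackr1, Erdr1, Lpxn and Pf4 the CD70TG CD34- means differed from the control CD34- means by -0.21 to 0.37.

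Of the other genes high in control CD34+ cells, Ehd3, of membrane trafficking, read 6.30 to 6.59 in CD70TG CD34- arrays, below the 6.93 to 7.44 of control CD34- and far from the 9.42 to 9.66 of control CD34+ arrays. Lypd6b (8.53 to 9.15) and Cpa3 (10.49 to 10.80) lay above control CD34- arrays and below control CD34+ arrays. For Cpa3 the mean of 10.66 was nearer to control CD34+ (11.39) than to control CD34- cells (9.10). Of the genes low in control CD34+ cells, Emp1, an epithelial membrane protein, read 10.35 to 10.89 in CD70TG CD34-, 10.64 to 10.98 in control CD34- and 7.56 to 9.03 in control CD34+ arrays. The chemokines Ccl3 and Ccl4 had means of 7.52 and 12.08 in CD70TG CD34- cells, between 8.31 and 12.63 in control CD34- and 6.27 and 10.62 in control CD34+ cells. Wfdc18, Sphk1, Slc38a5 and Fos were also between both control means. Slc40a1, with a control CD34- mean of 11.22, went the other way, to 12.99.

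**Figure D5:**
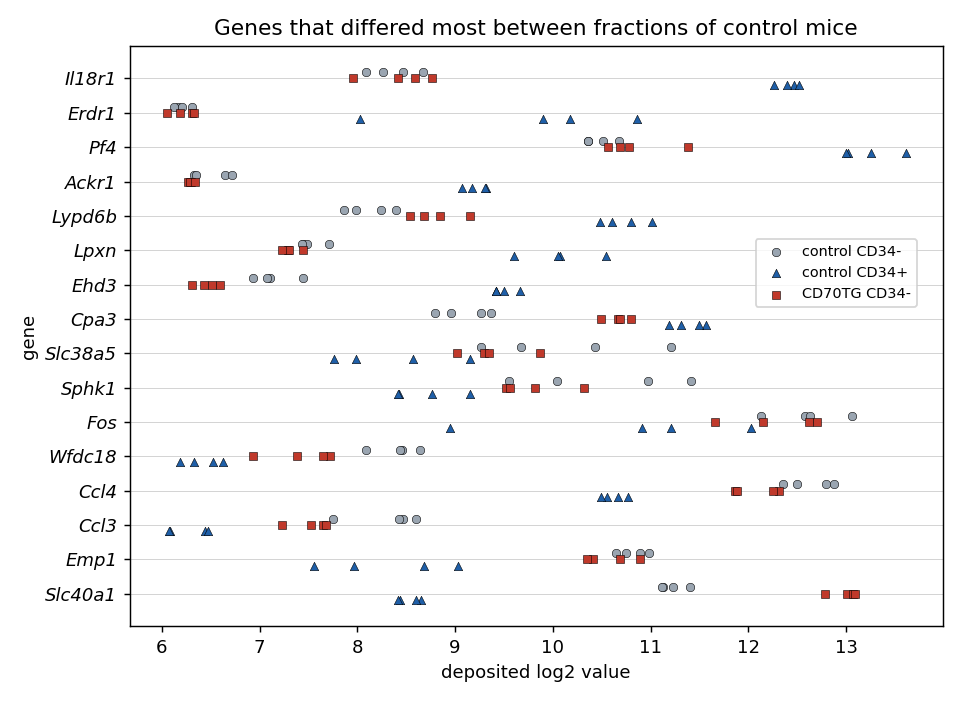
Deposited log2 values (x axis) of the 16 genes that differed most between the fractions of control mice (y axis, ordered by that difference), on 4 arrays each of control CD34-, CD70TG CD34- and control CD34+ groups. For Il18r1, Erdr1, Pf4, Ackr1 and Lpxn the CD70TG CD34- arrays lie with the control CD34- arrays.

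Several components and targets of NF-kB, the pathway below TNF receptors, were lower in the transgenic CD34- cells than in control CD34+ cells. Of 30 measured members of a list that holds both, 9 fell, 3 rose and 18 did not pass, with a median of -0.13, against 5.28% and 6.3% of all features. From control CD34- to control CD34+ cells 8 rose and 2 fell, where 2.26% and 2.56% of all features did. Nfkb2, the precursor of the p52 subunit, read 7.65, 7.51, 7.85 and 7.73 in CD70TG CD34- and 9.22, 9.03, 9.02 and 9.35 in control CD34+ arrays. The difference was -1.47 ± 0.13 (SE, adjusted p = 1.0e-07), while control CD34- and CD70TG CD34- means were 7.73 and 7.69. Nfkbia, the inhibitor that NF-kB itself induces, read 6.91, 7.27, 7.33 and 7.67 against 9.01, 8.74, 8.85 and 8.56, a difference of -1.50 ± 0.15. Relb, the partner of p52, read 6.89, 7.17, 7.11 and 7.39 against 8.78, 8.56, 8.54 and 8.64 and fell by 1.49. Ltb, lymphotoxin beta, read 7.16 to 7.37 against 9.59 to 9.91 and fell by 2.43 (adjusted p = 4.3e-12). For these 4 genes no array of one group entered the range of the other. Tnfaip3, the feedback inhibitor A20, fell by 1.16, Bcl3, a partner of p52, by 1.04, and Map3k14, the NIK kinase of the noncanonical pathway, by 0.86.

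Nfkbia, Relb and Ltb were also lower in CD70TG CD34- than in control CD34- cells, with differences of -0.82 to -0.54 (adjusted p of at most 0.014). Traf1, an adaptor of TNF receptors, fell by 1.10 against control CD34+ and fell by 0.93 against control CD34- cells. Against CD70TG CD34+ cells, Nfkb2 (mean of 9.53 there), Relb (8.30), Nfkbia (8.45) and Ltb (9.10) were lower too, with adjusted p of at most 2.2e-05. The members that rose were Ccl4 (1.46), Ccl3 (1.25) and Siva1 (0.37), the last of which encodes a protein that binds CD27. Rel and Rela were not called, at -0.07 and -0.12.

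The promoters of Nfkb2 and Nfkbia are shown because both are known direct NF-kB targets. RefSeq windows were matched for 26 of the 30 list genes, and the letters GGGNNTTTCC, searched on both strands, occurred in 9 of them (34.62%) against 1.89% of all 27025 genes. Of other list genes examined singly, Ltb held a match and Traf1 did not. The list was chosen for known components and targets of NF-kB, so this share is not a result of these arrays, and a match does not show binding. Capitals mark the matched letters, which in Nfkbia lie on the reverse strand of the printed sequence. The Nfkb2 window shown is 1 of 3 in the table and lies at chr19:46304487-46304786 on the + strand, and that of Nfkbia lies at chr12:55492598-55492897 on the - strand.
Nfkb2: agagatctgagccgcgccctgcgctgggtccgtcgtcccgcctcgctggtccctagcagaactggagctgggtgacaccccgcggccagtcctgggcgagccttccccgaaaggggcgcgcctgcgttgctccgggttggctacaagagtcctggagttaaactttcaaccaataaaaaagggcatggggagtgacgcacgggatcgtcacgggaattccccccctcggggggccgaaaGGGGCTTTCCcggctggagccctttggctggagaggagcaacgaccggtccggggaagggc
Nfkbia: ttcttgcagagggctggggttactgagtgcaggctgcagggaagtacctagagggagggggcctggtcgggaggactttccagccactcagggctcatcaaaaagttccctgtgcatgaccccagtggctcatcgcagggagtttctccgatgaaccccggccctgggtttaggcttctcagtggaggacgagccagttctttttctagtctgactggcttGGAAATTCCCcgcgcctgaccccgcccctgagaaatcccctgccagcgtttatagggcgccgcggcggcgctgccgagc

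Some genes of interferon gamma response and antigen presentation were lower as well, in mice that all lacked IFNgamma. Of 35 measured members 6 fell and 1 rose (5.28% and 6.3% of all features), with a median of -0.05. With the index in the fit 5 fell and 0 rose, and without both arrays that stood apart 8 fell and 3 rose. H2-Ab1, a class II chain, read 9.41, 9.36, 9.29 and 9.39 in CD70TG CD34- and 10.64, 10.54, 10.60 and 10.32 in control CD34+ arrays, a difference of -1.16 ± 0.16 (SE, adjusted p = 1.8e-05). Its other bright probes differed by -0.80 to -0.61. At the chosen probe the control CD34- mean (9.39) was close to that of CD70TG CD34- cells (9.36). H2-Eb1 fell by 1.11, and Cd74, the invariant chain, by 1.42, whereas H2-DMa (-0.05) and H2-DMb1 (0.01), of peptide loading, did not pass. Ciita, the master regulator of class II genes, fell by 0.66 and was above background on 1 of 4 CD70TG CD34- and 4 of 4 control CD34+ arrays. With the index in the fit it did not pass (-0.45, adjusted p = 0.14). Gbp2 fell by 0.61, but another bright probe of it differed by 0.65 in the other direction. Irf1 and B2m did not pass (0.03 and -0.23). Of 34 type I interferon genes 4 rose and 1 fell (median 0.12; 6.3% and 5.28% of all features). They were Ifit3 (0.69, another probe 0.01), Cmpk2 (0.48), Usp18 (0.48), Ifit2 (0.57, another probe 0.27) and, lower, Parp14 (-0.51). With the index in the fit 3 members of the list rose and 0 fell, but Cmpk2 (0.45), Ifit2 (0.11) and Parp14 (-0.44) did not pass. Usp18 did not pass without both arrays that stood apart (0.38, adjusted p = 0.068).

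Of 20 TGF-beta and SMAD genes 3 fell and 1 rose (5.28% and 6.3% of all features), with a median of -0.09. Tgfbr3, the co-receptor betaglycan, read 7.79 to 7.99 in CD70TG CD34- and 8.61 to 8.95 in control CD34+ arrays and fell by 0.91 (adjusted p = 4.9e-06). Control CD34- cells were at 7.98. The inhibitory Smad6 fell by 0.62, with another bright probe at 0.11, the SMAD corepressor Skil fell by 0.84, and Id2, an inhibitor of helix-loop-helix factors, rose by 0.69 but did not pass with the index in the fit (0.49, adjusted p = 0.10), where 4 members fell and 0 rose. Of 21 immediate early genes 6 rose and 0 fell (6.3% and 5.28% of all features), with a median of 0.30, while 8 fell from control CD34- to control CD34+ cells (2.56% of all features). With the index in the fit 10 rose, and without both arrays that stood apart 4. Fos read 12.70, 12.62, 11.66 and 12.15 against 10.91, 11.21, 12.03 and 8.94, with overlapping groups. Its difference of 1.51 did not pass (adjusted p = 0.06) and did with the index in the fit (2.80, adjusted p = 2.8e-04). Fosb rose by 1.00, Klf2 by 0.81 and Klf6 by 0.82, and Klf6 did not pass without both arrays that stood apart (0.38, adjusted p = 0.19). Of 25 chemokine, adhesion and niche genes 4 rose and 2 fell (6.3% and 5.28% of all features), with a median of 0.01, and with the index in the fit 0 rose and 3 fell. The rises were Alcam (0.78), Cd44 (0.58, another probe 0.17), the chemokine receptor Cxcr4 (0.46) and Itgav (0.19), and besides Esam the angiopoietin receptor Tek fell, by 0.64.

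Genes of metabolism and protein folding were called at a minority of members, all of them higher. Their counts stand against 6.3% of all features that were higher and 5.28% that were lower. Of 51 oxidative phosphorylation genes 5 rose and 0 fell, with a median of 0.13, and for 28 of the 51 the 95% interval lay within 0.5 of 0. Against control CD34- cells 21 rose and 2 fell (9.7% and 7.57% of all features). Ndufa4, of the respiratory chain, read 13.25, 13.17, 13.14 and 12.92 in CD70TG CD34- and 12.20, 12.18, 11.87 and 12.61 in control CD34+ arrays and rose by 0.90 (adjusted p = 2.1e-05). Atp5a1, of the ATP synthase, rose by 0.81 (adjusted p = 0.019) and differed by 0.07 with the index in the fit. Of 29 ribosome biogenesis and Myc target genes 6 rose and 0 fell (median 0.05), among them Odc1, ornithine decarboxylase (0.60), and Rrs1, a ribosome assembly factor (0.72), which differed by -0.07 with the index in the fit (adjusted p = 0.83). Of 23 chaperones 3 rose and 0 fell (median 0.18), and with the index 0 did. Hsp90aa1, an HSP90 chaperone, read 12.32, 10.38, 11.75 and 11.54 against 9.91, 8.94, 8.98 and 11.29, with overlapping groups and a difference of 1.72 ± 0.46 (adjusted p = 0.016) that was 0.07 with the index in the fit. Without both arrays that stood apart 12 oxidative phosphorylation genes rose and 4 fell, and 7 chaperones rose and 1 fell. At Hsp90aa1 control CD34+ replicate 4 was the highest and CD70TG CD34- replicate 2 the lowest of their groups.

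Among the largest falls outside these lists, Bcas1 read 7.34 to 7.38 in CD70TG CD34- and 10.17 to 10.72 in control CD34+ arrays, a difference of -2.98 ± 0.17 (SE, adjusted p = 1.0e-10). Chst7, a sulfotransferase (-2.18), Gimap7 (-2.16), the receptor Gpr18 (-2.13) and the trefoil peptide Tff2 (8.48 to 6.48 between group means) fell as well. At its chosen probe Podnl1 was at least 3.71-fold lower, with the CD70TG CD34- arrays below background, while another bright probe differed by only -0.67 on the log2 scale. Control CD34- means lay between both groups for each of Bcas1 (8.48), Chst7 (7.14), Gimap7 (8.28), Gpr18 (9.13) and Tff2 (7.15). All 5 were lower in CD70TG CD34- than in control CD34- cells as well, with differences of -1.12 to -0.47 (adjusted p of at most 0.037). Among the 2119 called features, other probes above background were set beside the chosen one where a gene had them, of which 563 among 725 pointed the same way and 4 passed the test with the opposite sign.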

How the data were processed

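The submitters measured RNA on 16 Illumina mouse bead arrays, 4 per group. Per the labels' protocols, RNA was extracted with the RNeasy Plus micro kit and amplified in 2 rounds with the MessageAmp kit, which can raise the spread of low signals. The deposited values are read as log2 from their range. Neither their normalization and background correction nor the logarithm's base is stated in the labels. A second table of 32 columns, whose names match no sample label, was not used, so normalization from the non-normalized signals (neqc) was not run and depth is limited to the number of arrays.

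Of 25697 probes, 23978 have 1 gene symbol and 1719 none, and 23962 were matched to RefSeq by gene number. The probe with the highest mean of each symbol was kept, with every unnamed probe, which left 18312 features, 16593 of them named. Differences were fitted with limma 3.58.1 in R 4.3.3 over all 16 arrays, with group means, a mean-variance trend and 12 residual degrees of freedom, and p-values were adjusted by Benjamini-Hochberg over all features. The fit was tested on simulated data. Each array is a pool of mice, and p-values measure the spread between pools. A feature counts as above background when it exceeds the mode of the array by 1.64 SD on at least 4 of the 16 arrays, whatever their group, which 11851 features do.

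The members and the 25 gene lists (17 of programmes, 8 of cell type markers) were chosen with earlier results of these data known. Named genes are the 15 largest rises and falls without overlap, the called list members with the smallest p (at most 5 per list), the 8 largest rises and falls between control fractions, and the genes of the sort. Other list members were named after their values were seen. Replicate numbers were not taken to pair the arrays: deviations of same-numbered CD70TG CD34- and control CD34+ arrays correlated at 0.041, 0.501, -0.334 and -0.066, those of both CD70TG fractions at 0.443, 0.653, -0.03 and 0.158, and in none of 5 group pairs were all 4 over 0.1. Alternatives covered the filter on dim probes, single probes, the 8 arrays alone, a replicate block, array weights, a minimum fold of 1.2, scaling, the variance trend, the probe index and left-out arrays.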

Additional observations from a re-analysis of the deposited data

Results flagged for a closer look

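Of 284 groups of 4 arrays tested, 9 held a value far from the other 3, and chance flags about 1 in 20 groups. CD70TG CD34- replicate 2 stood apart at 3 genes: Flt3 read 6.731 where the others read 8.858 to 9.026, Rrs1 7.023 (others 7.824 to 7.957) and Ndufa1 12.786 (others 12.287 to 12.332). Control CD34+ replicate 4 stood apart at 3 genes: Cd27 read 12.204 (others 12.68 to 12.772), Klf6 9.694 (others 10.399 to 10.455) and Rhd, an erythroid blood group gene, 6.362 (others 6.063 to 6.093). CD70TG CD34- replicate 1 was low at Fpr2, with 9.259 against 10.487 to 10.695, and at Retnlg, a neutrophil gene, with 8.231 against 9.078 to 9.16. CD70TG CD34- replicate 4 was low at Il7r, with 8.817 against 9.208 to 9.273.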

How the results depend on the processing

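Between CD70TG CD34- and control CD34+ cells 2119 features were called. Array weights gave 3300 (1813 higher, 1487 lower), a minimum fold of 1.2 gave 591 (330 higher, 261 lower), the probe index as a covariate 1134 (620 higher, 514 lower), and leaving out both arrays that stood apart 3209 (1779 higher, 1430 lower). The minimum fold of 1.2 gave 994 against control CD34-, 204 between control fractions and 275 against CD70TG CD34+ cells, and the index gave 595 against control CD34- cells. Leaving out each array in turn gave 1497 to 2723 called (801 to 1542 higher, 684 to 1193 lower), 2366 to 3359 against control CD34- cells, 570 to 979 between control fractions and 531 to 698 against CD70TG CD34+ cells. The count with an interval within 0.5 of 0 was 13513 to 14128 then, 7704 with the filter on dim probes and 5335 with the stricter one, which test fewer features. The replicate block gave 2367 as a fixed term and 2136 as a random one (block correlation 0.0049). With the fixed block Fos (1.51, adjusted p = 0.022) and Cd48 (0.65, adjusted p = 0.028) passed, Klrb1c did not (-0.27, adjusted p = 0.051), and no other named gene changed its call. With the index removed, 1 array in place of 3 was nearer to control CD34+ than to control CD34- cells. Without both arrays that stood apart 3 were, with CD70TG CD34- replicate 2 itself left out. Rrs1 reversed to -0.074 with the index (adjusted p = 0.83), and the cause was not tested. Of 140 named genes 133 were called, and 91 kept call and direction under each alternative run. With the index 26 lost the call in the same direction, besides Rrs1. The analysis with neqc was not run. The number of arrays limits the precision, and dim probes have only a bound.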

Other observations

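Erdr1 read nearly alike on same-numbered control CD34+ and CD70TG CD34+ arrays, with 8.03 and 8.03 for replicate 1, 9.90 and 10.27 for replicate 2, 10.18 and 10.63 for replicate 3, and 10.86 and 10.86 for replicate 4. All 8 CD34- arrays read 6.05 to 6.33. The pairing of replicate numbers is not stated in the sources used here.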
